A study of Mus musculus with 2 samples.

Results

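The genes described here encode the subunits of the mouse proteasome, its activators, its inhibitor PI31 and its assembly chaperones. They were taken by symbol, as every gene of the deposited gene tables named Psma, Psmb, Psmc, Psmd, Psme, Psmf or Psmg with a number. That gave 48 genes of 55536 named genes. Total RNA was sequenced from hippocampus, labelled as a layer of that tissue, of male B6CASTF1/J mice aged 25 days, an F1 hybrid strain. All samples formed 1 group with 2 biological replicates, and no treatment, genotype or age was compared, so no test was possible and no p-value is given. The starting material was 300 ng of RNA per library, to which ERCC spike-ins, synthetic reference RNAs, were added. By the labels the replicates are separate tissue samples that share 1 donor identifier. The labels thus leave undecided whether separate animals were used, so differences between the libraries may reflect handling alone.

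The proteasome degrades proteins that carry ubiquitin chains. Its 20S core is a barrel of outer alpha rings, which gate the entrance, and inner beta rings, of which only some subunits cut peptide bonds. The 19S regulatory particle binds ubiquitin, removes it and unfolds the substrate with a ring of ATPases, and core and regulatory particle together form the 26S proteasome. Cells exposed to interferon-gamma, and many immune cells, replace the constitutive catalytic subunits by the immunoproteasome subunits Psmb8, Psmb9 and Psmb10. The thymic cortex uses Psmb11 and male germ cells use Psma8. In neurons, proteasome activity is known for its part in synaptic protein turnover.

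Depth was 30635891 expected counts on named genes for replicate 1 and 35713471 for replicate 2, and the 48 genes took 0.185% and 0.195% of these. All 6 hippocampal excitatory neuron markers were detected, among them Camk2a at 1624 and 1484 TPM (a level per transcript length, scaled to a fixed total in each library). Of 7 lymphocyte markers 1 was detected, Ptprc, which microglia also express, at 1.31 and 1.28 TPM, and Cd3g and Cd8a were at 0 counts. All 6 microglial markers were detected, with a median of 19.1 TPM. Of 5 thymic epithelial markers 2 were detected, Ctsl and Ccl25, and Foxn1, the transcription factor that defines that tissue, was at 0 counts. Of 7 male germ cell markers 1 was detected, Dazl at 1.15 and 1.55 TPM, and the protamine and transition protein genes Prm1, Prm2, Tnp1 and Tnp2 were at 0 counts.

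Promoter windows were read to show the sequence in front of the genes whose levels are compared. RefSeq windows from 250 bases before to 50 bases after a start site (build GRCm38.p6) matched 40 of the 48 genes, in 43 windows. Short motifs were searched on both strands: TGACNNNGC, the core of the element bound by Nfe2l1, the transcription factor that raises proteasome genes when the proteasome is inhibited; CCAAT, bound by NF-Y; GAAA, any 2 bases, GAAA, an interferon-stimulated element; and TTCNNNGAA, a STAT element, which reads the same on both strands. TGACNNNGC was in 6 of the 43 windows, which is 13.95%, against 12.4% of all windows. CCAAT was in 14 windows, 32.6% against 37.4%, and TTCNNNGAA in 3, 6.98% against 8.3%. The interferon-stimulated element was in 5 windows, 11.6% against 3.44% of all windows, namely those of Psmb3, Psmd4, Psmd9, Psme1 and Psmg4. The motifs do not overlap in the 30-base stretches below, which were chosen because they belong to the catalytic subunits and to the activator subunit Psme1, whose levels follow. The promoter of Psmb7 was not analysed here. Each runs 5′ to 3′ along its gene's strand, and capitals mark the motif, or its reverse complement where it lies on the opposite strand. They are Psmb5 at chr14:54618023-54618052 (minus strand), Psmb6 at chr11:70525338-70525367 (plus strand), Psmb8 at chr17:34198088-34198117 (plus strand), Psmb9 at chr17:34187321-34187350 (minus strand), Psmb11 at chr14:54625143-54625172 (plus strand) and Psme1 at chr14:55578493-55578522 (plus strand).
Psmb5 (TGACNNNGC): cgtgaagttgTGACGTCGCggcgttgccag
Psmb6 (TGACNNNGC): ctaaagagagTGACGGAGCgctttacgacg
Psmb8 (TTCNNNGAA): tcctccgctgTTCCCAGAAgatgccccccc
Psmb9 (CCAAT): gcgcagccgctgATTGGaaagccgagcccc
Psmb11 (CCAAT): atccctcaccagCCAATtccaaagcctgat
Psme1 (interferon-stimulated element): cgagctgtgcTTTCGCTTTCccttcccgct
TGACNNNGC began 47 bases before the RefSeq start of Psmb5 and 9 bases before that of Psmb6. TTCNNNGAA began 97 bases before that of Psmb8, and the reverse complement of CCAAT began 8 bases before that of Psmb9. The window of Psmb10 held none of these motifs, which says only that these letters are not in it. For Psmb8, Psmb9 and Psme1 the RefSeq start lies 474, 434 and 371 bases downstream of the most upstream GENCODE start, and for Psmb11 3877 bases, so another start would give another window. A match is a description of the sequence, not a site of binding.

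Of the 48 genes, 44 reached a mean of 1 TPM in the RSEM gene table, against 58.9% of all 22028 protein-coding genes. Those that did not were Psma8, Psmb8, Psmb9 and Psmb11. Psmb8 and Psmb9 lie at this limit: with kallisto, or with RSEM's posterior mean TPM, both passed it on the mean and 46 genes were detected. All levels below are RSEM TPM unless kallisto is named. These tissue-restricted or inducible catalytic and alpha subunits stood apart from every constitutive subunit by more than an order of magnitude in both libraries, as the plot of levels by role shows. In whole-tissue RNA, fewer cells that express a gene and less RNA per cell cannot be told apart.

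**Figure D1:**
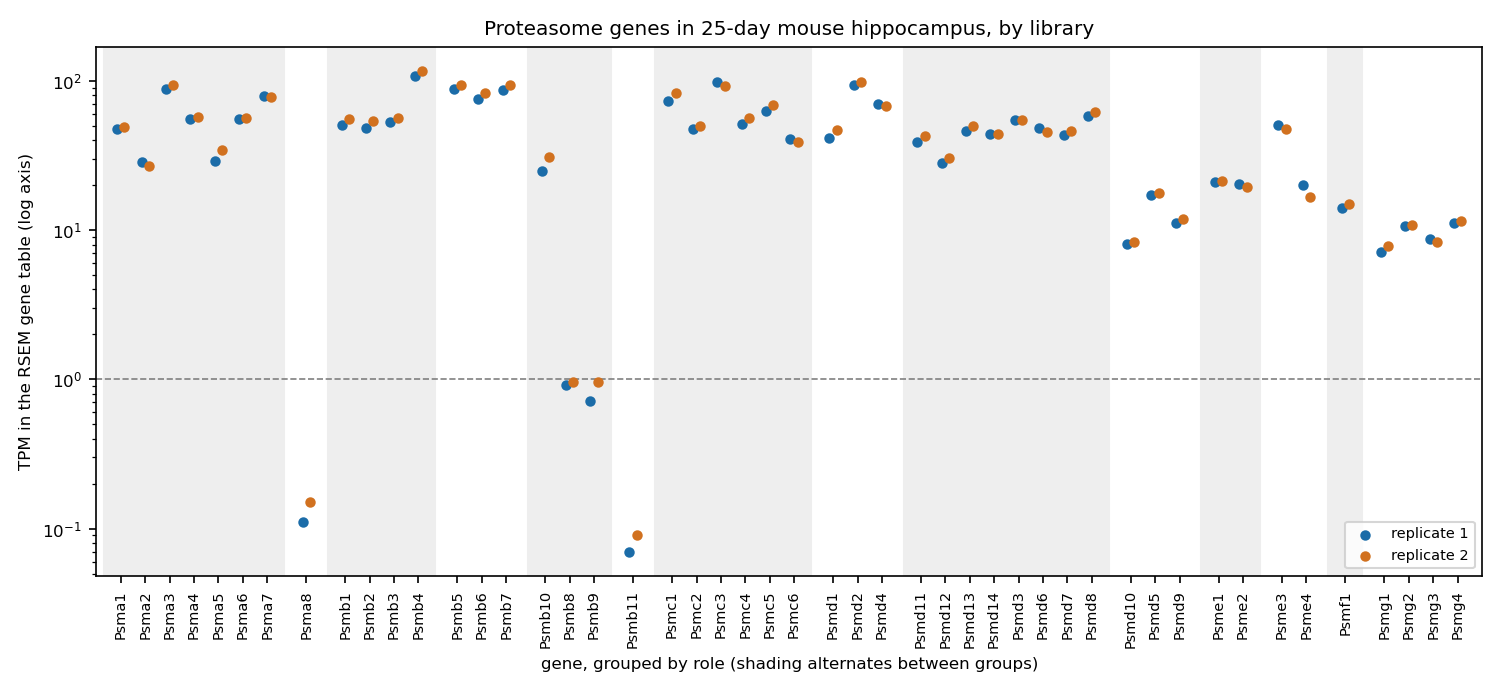
TPM of each gene (log axis) in replicate 1 (blue) and replicate 2 (orange), grouped by role with alternating shading; the dashed line is 1 TPM. Psma8, Psmb8, Psmb9 and Psmb11 lie below the line, and the constitutive core and regulatory subunits lie between 26.9 and 116 TPM.

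The 7 alpha ring genes, whose products close the ends of the core, had a median of 56.0 TPM. Psma3 was the most abundant of them, with 88.4 TPM in replicate 1 and 94.0 TPM in replicate 2. Psma7, which germ cells replace by Psma8, had 79.0 and 77.8 TPM. Psma2 was the least abundant, with 28.5 and 26.9 TPM. The highest alpha gene was thus 3.29-fold above the lowest, and 5.42-fold with kallisto, which gave the same highest and lowest gene. On protein-coding models alone Psma7 was the highest, with 66.9 TPM on average. Psma5 had 28.8 and 34.6 TPM, and the other three, Psma1, Psma4 and Psma6, lay between 47.8 and 57.0 TPM in both libraries. Psma8 had 3 expected counts in replicate 1 and 4 in replicate 2, with exact 95% Poisson intervals of 0.619 to 8.77 and 1.09 to 10.2 counts. Its level of 0.11 and 0.15 TPM was 0.139% and 0.193% of that of Psma7, and counts this low do not settle whether the gene was transcribed. The 7 germ cell markers summed to 2.25 TPM in replicate 1 and 3.31 TPM in replicate 2, with those of late germ cells named above at 0 counts, and the part of such cells in the counts of Psma8 was not tested.

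The structural beta subunits, which do not cut, were Psmb1 to Psmb4. Psmb4 had 108 and 116 TPM, the highest RSEM level among the 48 genes in both libraries. With kallisto it had 162 and 173 TPM, below Psmc3 and Psma3 in both. On protein-coding models alone it had 66.5 TPM on average, below Psmb5, Psmb7, Psmd2, Psmc3, Psmb6 and, narrowly, Psma7. Psmb1, Psmb2 and Psmb3 had means of 53.0 ± 3.45, 51.2 ± 4.11 and 54.8 ± 2.50 TPM (SD, n = 2), which lie within the spread between libraries. Within each library the order was the same in the RSEM table, with Psmb3 highest and Psmb2 lowest. With kallisto Psmb2 was again the lowest in both libraries, and Psmb1 and Psmb3 changed places between them.

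The constitutive catalytic subunits were close to each other. Psmb5, the chymotrypsin-like subunit, had 88.6 TPM in replicate 1 and 93.7 TPM in replicate 2. Psmb7, the trypsin-like subunit, had 87.2 and 94.5 TPM. Psmb6, the caspase-like subunit, had 75.8 and 83.0 TPM. The ranges of Psmb5 and Psmb7 overlap, and Psmb6 lay below both in each library. The kallisto table gave another order, with 148 and 159 TPM for Psmb7, 117 and 122 TPM for Psmb6 and 118 and 116 TPM for Psmb5.

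Among the immunoproteasome subunits, Psmb8 and Psmb9 were near the detection limit and Psmb10 was not. Psmb8, which takes the place of Psmb5, had 0.92 TPM in replicate 1 and 0.96 TPM in replicate 2, from 21 and 23 expected counts. Psmb9, which takes the place of Psmb6, had 0.72 and 0.96 TPM from 16 and 20 expected counts. Psmb10, which takes the place of Psmb7, had 24.96 and 30.98 TPM from 332 and 456 expected counts. By posterior mean TPM, Psmb8 had 1.30 and 1.32 and Psmb9 1.28 and 1.43, and by kallisto Psmb8 had 1.86 and 1.63 TPM and Psmb9 0.864 and 2.16 TPM. Psmb10 was far above both in each of these estimates.

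Set against its constitutive counterpart within each library, Psmb8 was at 1.04% and 1.02% of the TPM of Psmb5. Psmb9 was at 0.9505% and 1.16% of the TPM of Psmb6. Psmb10 was at 28.6% and 32.8% of the TPM of Psmb7. On expected counts, with no correction for length, Psmb8 made up 1.41% (95% Wilson interval 0.922% to 2.14%) and 1.24% (0.829% to 1.86%) of the reads of its pair. Psmb9 made up 1.46% (0.901% to 2.36%) and 1.42% (0.919% to 2.18%), and Psmb10 14.6% (13.2% to 16.1%) and 15.6% (14.3% to 16.9%). The interval of Psmb10 did not overlap those of the other pairs in either library. Intervals cover counting error only.

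The level of Psmb10 came mostly from transcript models that are not annotated as protein-coding. The leading model was Psmb10-203, a processed transcript of 426 bases, with 37.1% of the gene's TPM in replicate 1 and 44.8% in replicate 2. Psmb10-201, the protein-coding model of 1311 bases, held 25.4% and 21.97%, and Psmb10-205, a retained-intron model of 554 bases, held 23.7% and 22.6%. In the kallisto table the leader was Psmb10-205, with 34.1% and 33.4%, Psmb10-203 held 7.99% and 10.2%, and the share on protein-coding models was 31.3% and 30.8%. By expected counts, which favour long models, Psmb10-201 held 160 and 202 reads and Psmb10-203 held 63.1 and 111 reads. When only protein-coding models were summed, a comparison added after these shares were seen, Psmb10 had 6.35 and 6.81 TPM, against 86.7 and 94.0 TPM for Psmb7. That is 7.32% and 7.24% of Psmb7, below the value from all models and still above the coding-model values of the other pairs. Psmb8 came to 0.553% and 0.694% of Psmb5, and Psmb9 to 1.06% and 0.404% of Psmb6.

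Summed over the 3 pairs, the immunoproteasome subunits reached 10.6% and 12.1% of the constitutive TPM over all models. Over protein-coding models they reached 3.14% and 2.99%. In both sums most of the immunoproteasome TPM was Psmb10.

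**Figure D2:**
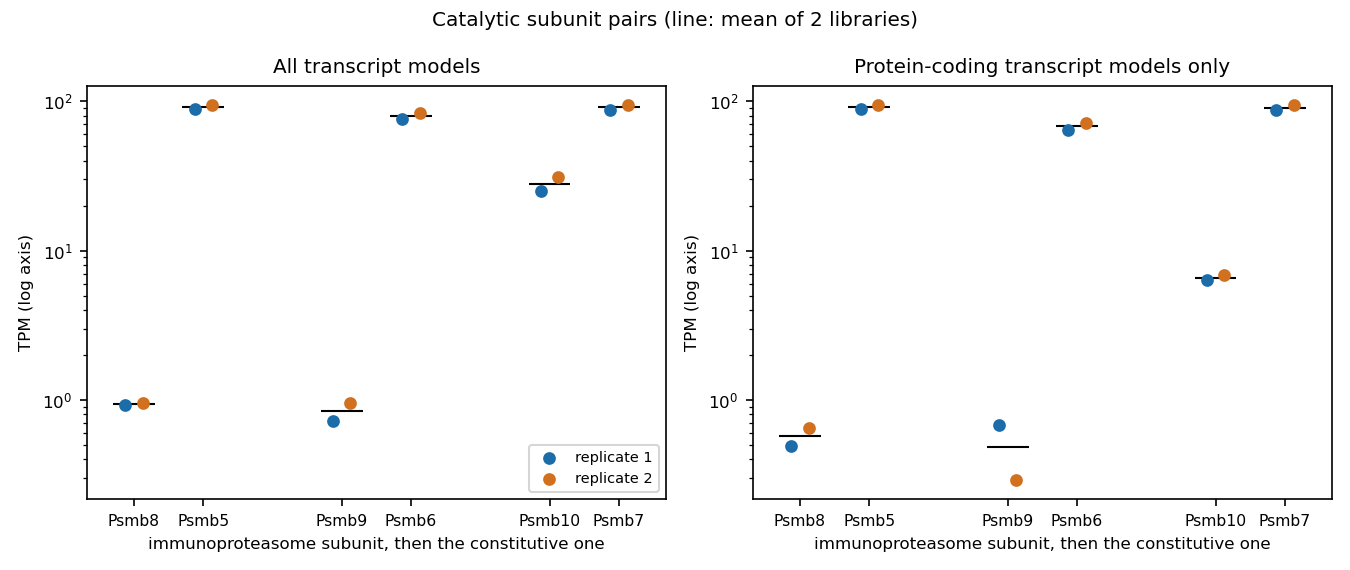
TPM (log axis) of each immunoproteasome subunit, left, and the constitutive subunit it replaces, right, for replicate 1 (blue) and replicate 2 (orange); black lines are the means of the 2 libraries. The left panel sums all transcript models and the right panel protein-coding models only, where Psmb10 moves to 6.35 and 6.81 TPM and Psmb7 stays at 86.7 and 94.0 TPM.

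Psmb11, the thymus-specific subunit, had 6 and 9 expected counts, with exact 95% Poisson intervals of 2.20 to 13.1 and 4.12 to 17.1 counts. Its 0.07 and 0.09 TPM were 0.0790% and 0.0961% of the TPM of Psmb5. In the kallisto table the same ratio was 0.529% and 0.273%, so its size depended on the table. The genes lie next to each other on chromosome 14 on opposite strands, Psmb5 at 54614119 to 54618022 and Psmb11 at 54621433 to 54629556 (mm10), 3410 bases apart. Psmb9 (chromosome 17, 34181987 to 34187764, minus strand) and Psmb8 (34197721 to 34201454, plus strand) lie 9956 bases apart. The start of Psmb9 is 211 bases from that of Tap1, which transports peptides for class I loading and had 1.44 and 1.28 TPM. Psmb9 shares 212 exon bases, 5.79% of its own, with Tap1 on the opposite strand. Whether the counting used strand is not given in the sources used here, so reads of those bases cannot be assigned to either gene for certain.

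The 6 ATPases of the 19S base, which form the unfolding ring, had a median of 59.9 TPM. Psmc3 was highest with 98.7 and 92.3 TPM, and Psmc6 lowest with 40.6 and 39.2 TPM. Psmc1 had 72.8 and 83.0 TPM, Psmc5 63.2 and 68.6 TPM, Psmc4 51.8 and 56.2 TPM, and Psmc2 47.6 and 49.5 TPM. The order of the 6 was the same in both libraries, but not in the kallisto table, where Psmc6 had 104 and 101 TPM and lay above Psmc2, Psmc4 and, on the mean, Psmc5.

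Of the other base subunits, the scaffold subunit Psmd2 had 93.7 and 98.9 TPM. Psmd4, a ubiquitin receptor, had 69.6 and 68.4 TPM, and Psmd1, a scaffold subunit like Psmd2, had 41.7 and 46.6 TPM. The 8 lid subunits lay closer together, with a median of 45.8 TPM and a highest value 2.06-fold above the lowest. Psmd8 was the highest of them with 58.1 and 62.1 TPM, and Psmd12 the lowest with 28.1 and 30.2 TPM. Psmd14, the enzyme that removes ubiquitin chains from substrates, had 44.0 and 43.8 TPM. Psmd7, which pairs with it in the lid, had 43.2 and 46.3 TPM. These partners do not differ beyond the spread of Psmd7 in the RSEM table. Psmd3, Psmd6, Psmd11 and Psmd13 lay between 39.0 and 55.0 TPM.

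Taking core and regulatory particle as 1 group of 31 constitutive genes, the median was 54.8 TPM, against 15.1 TPM for the 12977 protein-coding genes detected at a mean of 1 TPM. The 31 genes ranged from 27.7 TPM (Psma2) to 112 TPM (Psmb4), a span of 4.05-fold. Their SD on the log2 scale was 0.52, against 1.87 for the detected protein-coding genes, and 30 of the 31 lay within 2-fold of their own median, against 41.7% of detected protein-coding genes around theirs. The lowest of the 31 stood at percentile 69.2 of detected protein-coding genes. Core genes had a median of 56.1 TPM and regulatory particle genes one of 48.5 TPM, and the ranges of the 2 groups overlap over most of their length. Between libraries the relative SD of a gene had a median of 4.75% and was 12.8% at most, so the order was steady: Spearman's rho over the 31 genes was 0.98 between replicates. Genes are not independent replicates, and the libraries were processed alike.

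The 7 assembly chaperones, which build the particles and are not part of the finished proteasome, were lower, with a median of 10.7 TPM and a range of 7.46 to 17.4 TPM. Psmg1 and Psmg2, which act as a pair in building the alpha ring, had 7.12 and 7.79 TPM and 10.6 and 10.9 TPM in replicates 1 and 2. Psmg3 had 8.73 and 8.28 TPM, and its partner Psmg4 had 11.2 and 11.5 TPM. Of the chaperones of the 19S base, Psmd5 had 17.1 and 17.6 TPM, Psmd9 11.1 and 11.9 TPM, and Psmd10 8.08 and 8.27 TPM. No chaperone reached the level of any of the 31 constitutive subunits in either library, but in the kallisto table Psmd5, with 43.5 and 39.3 TPM, was above Psma2, with 33.8 and 31.1 TPM. Pomp, the maturation protein of the core, was not so low, with 56.8 and 62.7 TPM.

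Among the activators, which open the core without the 19S particle, Psme3 was highest. Psme3, whose product is nuclear, had 50.7 TPM in replicate 1 and 47.5 TPM in replicate 2. The PA28 subunits Psme1 and Psme2, which are induced by interferon-gamma and form 1 ring together, had 20.99 and 21.5 TPM and 20.4 and 19.5 TPM. Psme1 was slightly higher in each library, and in the kallisto table the gap was wider, with 39.2 and 43.6 TPM for Psme1 and 23.9 and 22.02 TPM for Psme2. Both stood above 19 TPM in each library in either table, well above Psmb8 and Psmb9. The genes are neighbours on chromosome 14, Psme1 at 55578123 to 55581529 (plus strand) and Psme2 at 55587441 to 55591113 (minus strand), 5911 bases apart. Psme4, the activator PA200, had 20.1 and 16.7 TPM, and Psmf1, the inhibitor PI31, had 14.2 and 15.1 TPM. All 5 lay below the median of the 31 constitutive subunits.

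Across the 44 detected genes, 38 had a leading transcript that held at least 50% of the gene's TPM, against 72% of detected protein-coding genes. The leader was the same model in both replicates for 41 genes. On the mean of the replicates it was protein-coding for 43, the exception being Psmb10. For neither count was the share over all detected protein-coding genes computed. In replicate 1 the leader of Psmd13 was Psmd13-211, a nonsense-mediated decay model, by 30.8% against 30.6% for Psmd13-208. The median share of a gene's TPM on protein-coding models was 92.2%, against 89.6% of detected protein-coding genes. With kallisto the order was the other way, with 86.3% against 87.4%. In the RSEM table the share was at least 90% in 24 of the 44 genes, against 49.2% of detected protein-coding genes. It was under 50% in 1, against 9.39%. Psmb4 had 57.7% and 60.8% on its protein-coding model Psmb4-201 and 30.6% in each library on the retained-intron model Psmb4-202. Psmd4 divided its TPM between protein-coding models, Psmd4-202 with 54.1% and 61.2% and Psmd4-201 with 26.7% and 21.04%.

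The protein-coding share was higher in replicate 2 in 33 of the 44 genes, lower in 5 and equal in 6. Of detected protein-coding genes it was higher in replicate 2 in 54.1%, and their median moved the same way, to 91.4% in replicate 2 against 88.5% in replicate 1. Psmc3, for example, had 79.6% in replicate 2 against 69.6% in replicate 1.

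**Figure D3:**
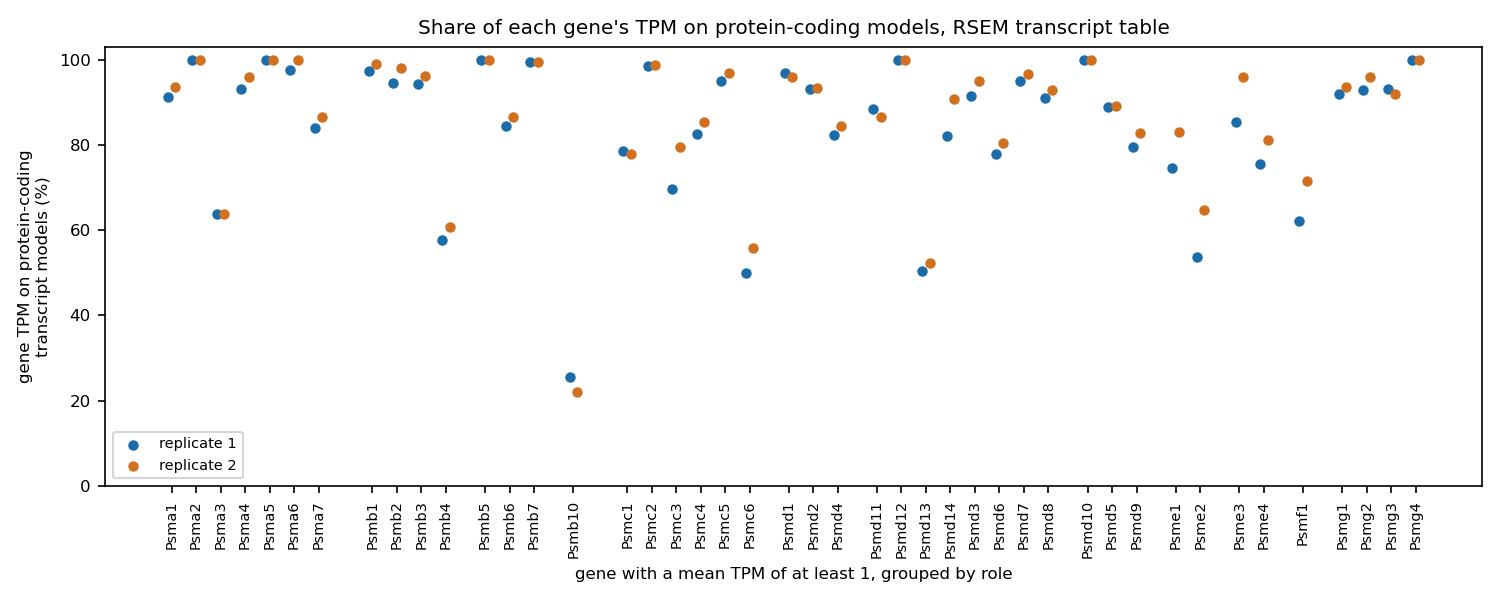
Percent of each gene's TPM on protein-coding transcript models in the RSEM transcript table, for replicate 1 (blue) and replicate 2 (orange), over the 44 genes with a mean of at least 1 TPM. Psmb10 is the lowest at 25.4% and 21.97%, and 33 genes are higher in replicate 2.

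The transcript values depended on the table more than the gene values did. The RSEM and kallisto tables named a different leading transcript, on the mean of the replicates, for 10 of the 44 genes. How often the tables differ over all detected protein-coding genes was not computed, so whether this count is particular to proteasome genes is not known. For Psmb1 both leaders were protein-coding: Psmb1-201 held 88.8% in the RSEM table and Psmb1-204 93.8% in the kallisto table. Psmd8-202 held 89.3% in the RSEM table, and Psmd8-201, which had no reads there, held 71.0% in the kallisto table. The choice also crossed the coding boundary: the kallisto table placed 53.2% of Psmd2 on Psmd2-206, a nonsense-mediated decay model, which had 1.18% in the RSEM table. On protein-coding models, the kallisto libraries held under 50% in 6 genes, Psma3, Psmb10, Psmc4, Psmc6, Psmd2 and Psmd13, against 11.7% of detected protein-coding genes, and at least 90% in 20 genes, against 45.9%. Psma3 had 63.8% on such models in the RSEM table on average, and 7.28% and 6.36% in the kallisto libraries. Over the 31 constitutive genes the summed gene levels of the tables had a Spearman's rho of 0.87. The kallisto level was 1.64-fold the RSEM level in the median gene of the 44 detected, against 1.57-fold in detected protein-coding genes.

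**Figure D4:**
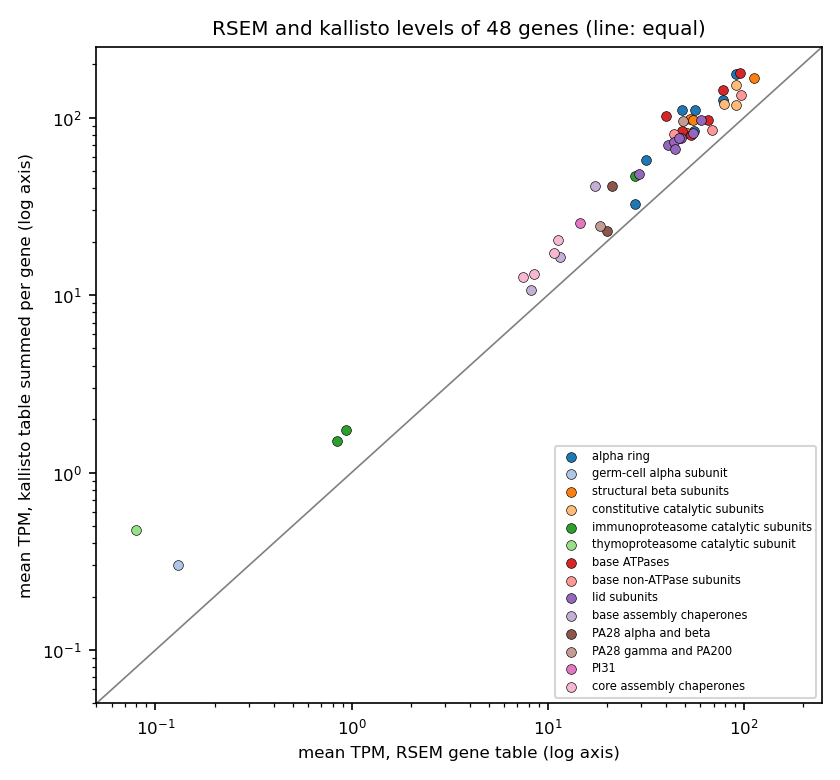
Mean TPM of the 48 genes in the RSEM gene table (x axis, log) and in the kallisto table summed per gene (y axis, log), coloured by role; the grey line marks equal values. All 48 genes lie above the line, by 1.64-fold in the median of the 44 detected genes, and Psma8, Psmb8, Psmb9 and Psmb11 are the 4 lowest in both tables.

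Processed pseudogenes and other copies could take or give reads where sequence is shared. Of the 48 genes, 32 share a 31-base word with another gene, and 8 share over 10% of their words with one. The share over all genes was not computed, and not all of the 8 are named here. Psmb5 shares 59.8% of its words with Gm3375, a pseudogene listed at 9.40 and 8.19 TPM, well below Psmb5 itself. Psma5 shares 46.2% with Gm8394 (6.11 and 6.48 TPM), Psme2 33.5% with the protein-coding copy Psme2b (0.40 and 0.14 TPM) and Psmd2 29.3% with Gm5422 (0.79 and 0.86 TPM). Psma3 shares 16.2% with Gm13835, which was listed at 6.84 and 11.96 TPM. RSEM's posterior SD, its uncertainty in sharing out reads, was 2.32% of the count of Psma3, 0.785% for Psma5 and 0.395% for Psmb5. The levels of these genes are uncertain to the extent that reads were divided wrongly, and among these Psma5 has the copy nearest to it in level. Of genes that overlap on the opposite strand, Nek6 covers 11.8% of the exon bases of Psmb7 at 19.7 and 21.5 TPM, and Sirt3 covers 10.1% of those of Psmd13 at 28.6 and 31.5 TPM.

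Between the libraries, none of the 44 genes whose expected counts averaged at least 100 was over 2-fold apart (0 of 44) on TMM-scaled counts, against 0.778% of 12719 genes and 0.0756% of 11905 protein-coding genes. The log2 ratio of replicate 2 over replicate 1 ran from −0.18 (Psme4) to 0.31 (Psma5). The ratio was above 0 in 40 of the 44 genes and below 0 in 4, against 60.7% of all genes and 62.2% of protein-coding genes above 0. The median of the 44 was 0.11, against 0.04 for all genes, and their SD was 0.08, against 0.19 for protein-coding genes. Scaled to the spike-ins instead, 4 genes were above 0 and 40 below, with a median of −0.10 against −0.17 for all genes. The direction thus depends on the scaling. The distance of the median from that of all genes was 0.07 in both. Each scaling shifts all genes by nearly the same amount, so this distance could hardly change and says nothing about the choice of scaling. The genes with the ratios nearest the ends were Psme4, lower in replicate 2, and Psma5 and Psmb10, higher in replicate 2 at 0.31 and 0.27. There is 1 ratio per gene and no replicate check of it.

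**Figure D5:**
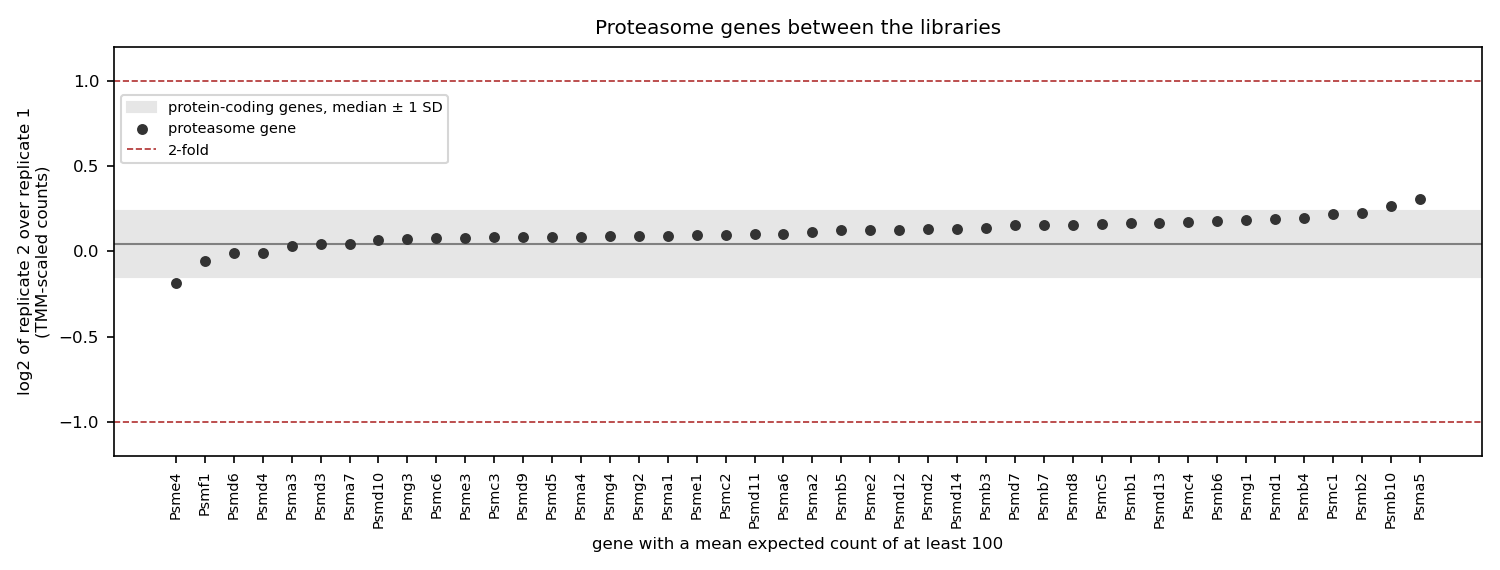
Log2 ratio of TMM-scaled expected counts, replicate 2 over replicate 1, for the 44 genes whose expected counts averaged at least 100, in rising order; the grey band is the median ± 1 SD of protein-coding genes and dashed lines mark 2-fold. All points lie between −0.18 and 0.31, and 40 lie above 0.

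Several genes share a start region with a gene on the opposite strand. The start of Psmc2 is 32 bases from that of Dnajc2, which had 14.2 and 13.1 TPM. Those of Psma2 and Psmc5 are each 75 bases from Mrpl32 (16.5 and 13.03 TPM) and Ftsj3 (13.97 and 12.5 TPM), and that of Psma7 is 76 bases from Ss18l1 (18.5 and 18.4 TPM). There were 12 pairs on opposite strands within 1000 bases, with a protein-coding neighbour. The proteasome gene was the higher in both libraries in 11. It was the lower in 1, Psmb9 with 16 and 20 counts beside Tap1. The share of such pairs over all genes was not computed, so the count does not set proteasome genes apart from others of their level. Some neighbours were hardly expressed, such as AY074887 beside Psma4 with 0.07 and 0.06 TPM. The 48 genes lie on 16 chromosomes, with 3 neighbouring pairs within 50000 bases, all described above.

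Other genes of the pathway were taken from lists by function. Of 10 further subunits and bound factors, 9 were matched and all 9 were detected, with a median of 42.4 TPM. The highest were Zfand5, which binds and stimulates the 26S particle, with 64.0 and 67.4 TPM, the deubiquitinase Usp14 with 62.8 and 65.5 TPM, and Pomp. The small lid subunit Sem1 had 20.8 TPM in each library, below every other constitutive 19S subunit. All 9 shuttle and unfolding factors were detected, with a median of 58.1 TPM, near that of the core. Ubqln2, a shuttle that carries ubiquitinated proteins to the proteasome, was the highest with 108 and 113 TPM, and the next on the mean were the unfoldase Vcp with 81.2 and 84.0 TPM and Rad23b with 72.1 and 85.0 TPM, which changed places between the libraries. Of the 9 genes of the Nfe2l1 pathway 8 were detected. The median over all 9 was 14.4 TPM, and Nfe2l1 itself led with 91.5 and 96.5 TPM.

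Of the 11 genes of interferon-gamma response and class I loading, 10 were detected, and the median over all 11 was 8.08 TPM. Jak1, a kinase of the receptor, had 50.5 and 51.4 TPM, B2m, the class I light chain, 42.2 and 41.4 TPM, and the receptor subunit Ifngr2 26.2 and 29.7 TPM. The gene under the limit was Nlrc5, the activator of class I genes, with 0.11 and 0.28 TPM from 11 and 9 counts. On RSEM TPM, Psmb8 and Psmb9 were thus below B2m and Tap1 in both libraries, and above Nlrc5. The gap to Tap1, at 1.44 and 1.28 TPM, was small for genes with 16 to 23 counts, so that order is uncertain. Microglia, whose markers summed to 139 and 142 TPM, and endothelium, whose 5 detected markers summed to 73.1 and 63.2 TPM, were both measured in these libraries, and the part of either in these levels was not tested.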

How the data were processed

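Total RNA-seq of 2 libraries of 1 group was used as deposited. Per the file headers, the deposited gene and transcript tables hold RSEM expected counts, estimates that share out reads matching several features, and TPM, which divides counts by an effective length and scales over all rows, spike-ins included. A second deposited transcript table holds kallisto estimated counts and TPM. Per the submitters' text notes, the reference was mm10 with GENCODE M21; the aligner and all versions are not given in the sources used. Short models gain TPM relative to counts. Of 81881 gene rows, 96 spike-ins (0.367% and 0.414% of counts) and 26248 unnamed rows (6 and 2 counts; 2.0e-05% and 5.6e-06%) stayed out of library sizes.

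Genes were called detected at a mean of 1 TPM. Expected counts were rounded and scaled by TMM in edgeR 4.0.16 (R 4.3.3; prior count 0.5). The ratio step was tested on simulated data: 190 of the 191 measured genes given a 3-fold change passed the 2-fold limit, and 0 of 12519 unchanged genes did. The simulation gave all genes the same spread beyond counting error. It thus checks the calculation, not how often unchanged genes pass in these libraries. Other steps used Python 3.11.15. All 48 genes were named by rule; of other lists, the 3 highest, with exceptions chosen after their values were seen. The genes and lists were chosen with earlier results of these data known. Alternatives were kallisto, posterior mean TPM, counts, DESeq2 1.42.0 size factors, spike-in scaling, other minimums and priors, and each replicate left out. Protein sequences were not analysed here, and 1 further gene list is not reported here.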

Additional observations from a re-analysis of the deposited data

How the results depend on the processing

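Of the 59 alternative values, 1 reversed, 22 moved and 36 did neither. A move was a shift of over 1 SD of the replicates for a level or ratio, or over 1.5 times for a count. Some of the 36 could not have moved. A ratio averaged over 2 libraries always shifts by less than 1 SD when 1 library is left out. The counts of detected genes and of genes with a leading transcript were too near their maximum to rise 1.5 times. Among the 36, the count of detected genes was 46 in place of 44 with kallisto, posterior mean TPM or a minimum of 0.5 TPM. At a threshold of 70%, 28 genes in place of 38 had a leading transcript. The reversed value was the median log2 replicate ratio of the proteasome genes, −0.10 with spike-in scaling against 0.11 with TMM. The median of the core genes was 110 TPM with kallisto and 127 TPM over nuclear protein-coding genes, against 56.1 TPM, and that of the 19S genes 82.0 and 109 TPM, against 48.5 TPM. Leaving out 1 replicate gave 55.4 to 56.8 TPM for the core and 48.1 to 50.1 TPM for the 19S genes. For Psmb8 over Psmb5, kallisto, posterior mean TPM, expected counts and protein-coding models gave 1.48%, 1.48%, 1.34% and 0.623%, against 1.03%. In the same order, Psmb9 over Psmb6 was 1.26%, 1.75%, 1.46% and 0.734%, against 1.05%, and Psma8 over Psma7 0.241%, 0.761%, 0.241% and 0.0754%, against 0.166%. Some of these means hide a wide spread between the libraries: with kallisto, Psmb9 over Psmb6 was 0.741% in replicate 1 and 1.77% in replicate 2, and Psma8 over Psma7 0.112% and 0.370%. On protein-coding models, Psmb9 over Psmb6 was 1.06% and 0.404%, and Psma8 over Psma7 0.151% and 0. Psmb10 over Psmb7 was 17.8% on expected counts and 7.28% on protein-coding models, against 30.7%. Psmb11 over Psmb5 was 0.401%, 0.203% and 0.450% with kallisto, posterior mean TPM and expected counts, against 0.0875%. The protein-coding alternative was chosen after seeing the data. In every one of these settings each ratio stayed below 50%. The cause of each movement was not tested, beyond the change of scale that each setting makes. No paired analysis was possible because there is only 1 group. Psma8, Psmb8, Psmb9 and Psmb11, with 3 to 23 counts, are limited by depth, and 2 libraries give little information on spread.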
